A study of Mus musculus with 28 samples.

Results

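Signalling through the kinase ERK raises a number of transcripts in many cells, and 10 genes listed for this are described here. ERK activity was not measured, and whether ERK raises these genes in the cells used was not tested. The 10 genes were taken by symbol from a list chosen with earlier results of these data known. It holds the phosphatase genes Dusp4, Dusp5 and Dusp6 and the Sprouty and Spred genes Spry2, Spry4, Spred1 and Spred2. The others are the ETS transcription factor genes Etv4 and Etv5, and Phlda1. Of the 10, 9 were matched to a row among the 13128 genes with a symbol, and Spry4 was not analysed here. All values are normalized log2 CPM (read counts scaled to the total of the library, on a log2 scale), so a difference of 1 is a doubling.

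Growth factors, acting through receptor tyrosine kinases and RAS, switch on the kinases RAF, MEK and ERK in turn. Active ERK raises transcripts whose products then hold the pathway back: the Dusp phosphatases remove the activating phosphates from ERK, and Sprouty and Spred proteins act upstream, between the receptors and RAF. Etv4 and Etv5 belong to the PEA3 group of ETS factors and are raised by growth factors of the FGF and EGF families. In the epididymis, growth factor signals from the lumen and from neighbouring cells help to keep the epithelium of the initial segment and caput alive and differentiated.

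The libraries were made from DC2 cells, a mouse line immortalized from the epithelium of the distal caput epididymidis and grown on collagen in medium with fetal bovine serum. At confluence the cells were given 0.1% ethanol, with or without corticosterone (500 ng/ml), a steroid of the adrenal cortex that binds the glucocorticoid receptor. Fresh medium on days 3 and 6 ended the exposure at day 3, so the libraries of days 6 and 9 follow 3 and 6 days of recovery. There were 7 groups of 4 libraries: vehicle at days 3, 6 and 9, corticosterone at days 3, 6 and 9, and a day 0 group, labelled vehicle, that was collected before any treatment. All groups are of this 1 line, and nothing in the labels tells if the 4 replicates of a group were grown separately, so p-values measure only the spread between these libraries. In bulk RNA, fewer cells that express a gene and less RNA per cell cannot be told apart.

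Taken back from the log, the libraries summed to between 949631 and 1059931 CPM, and read depth was not given. Corticosterone day 3 replicate 4 stood apart, with a root mean square distance from its group mean of 0.39 log2 units against 0.19 to 0.27 in the others. Epithelial markers of the labelled cell type summed to 58.6 to 86.3 CPM (7 of 8 measured). In the 7 group means Pax8 stood at 6.81 to 7.34 log2 CPM, Pax2 at 6.07 to 6.37, Krt18 at 3.71 to 5.29 and Cldn4 at 4.47 to 5.42, while Krt8 (0.17 to 2.31), Krt19 (-0.95 to 1.93), Epcam (-1.42 to 1.47) and Aqp9 (-3.26 to -0.38) were low. Cdh1, the gene of E-cadherin, was lower with corticosterone, as the genes described here were, at 1.65, 2.09 and 3.39 log2 CPM at days 3, 6 and 9 against 2.89, 3.72 and 3.84 in vehicle, and Krt7 was higher, at 1.70, 2.24 and 2.22 against 0.44, 0.15 and 0.26. Of 5 macrophage markers, Cd68 and Csf1r were measured, and their summed level was lower with corticosterone on each day, as it was for the genes described here: 7.88 to 11.3 CPM against 28.4 to 29.6 in vehicle at day 3, 10.3 to 13.8 against 49.1 to 57.6 at day 6, and 45.7 to 50.8 against 87.6 to 108.5 at day 9. Most of that sum was Cd68, a lysosomal gene, while Csf1r stood at -2.39 to 1.36 log2 CPM. The fibroblast markers Col1a1, Col1a2 and Dcn (3 of 6 measured) summed to 83.3 to 105.9 CPM with corticosterone against 19.6 to 24.6 in vehicle at day 3, to 50.5 to 57.9 against 29.5 to 33.0 at day 6, and to 41.6 to 47.0 against 33.5 to 37.6 at day 9. That difference was in Dcn (6.48 against 3.72 log2 CPM at day 3), while Col1a1 (1.65 against 3.03) and Col1a2 (-2.70 against -1.45) were lower. The endothelial markers Pecam1 and Kdr (2 of 4) summed to 7.15 to 9.71 CPM against 1.43 to 2.60 at day 3, 5.82 to 12.5 against 1.69 to 2.24 at day 6, and 1.79 to 2.67 against 0.975 to 2.78 at day 9, mostly through Kdr at days 3 and 6. The part of these genes and cell types in the results was not tested.

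Start-site sequences of 300 bases, from 250 before to 50 after the start, were found in RefSeq (GRCm38.p6) for 6 of the 9 genes, with a pair of start sites for Etv5. They were searched on both strands for GGAAGT, a core bound by ETS factors, because ETS factor genes are among the genes described. The windows shown are those of Dusp5, Spred2 and the downstream start of Etv5, which hold these letters (capitals, ACTTCC being the same letters on the other strand), and that of Dusp6, which does not. The window of Dusp5 lies at chr19:53528895-53529194 (plus strand), that of Spred2 at chr11:19924192-19924491 (plus strand), that of Etv5 at chr16:22438319-22438618 (minus strand) and that of Dusp6 at chr10:99262981-99263280 (plus strand).
Dusp5: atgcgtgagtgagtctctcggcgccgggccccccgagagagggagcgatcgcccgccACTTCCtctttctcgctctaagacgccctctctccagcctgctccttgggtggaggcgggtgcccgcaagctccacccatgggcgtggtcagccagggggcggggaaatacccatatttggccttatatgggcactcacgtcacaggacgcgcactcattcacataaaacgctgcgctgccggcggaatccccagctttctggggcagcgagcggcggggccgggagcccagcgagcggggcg
Spred2: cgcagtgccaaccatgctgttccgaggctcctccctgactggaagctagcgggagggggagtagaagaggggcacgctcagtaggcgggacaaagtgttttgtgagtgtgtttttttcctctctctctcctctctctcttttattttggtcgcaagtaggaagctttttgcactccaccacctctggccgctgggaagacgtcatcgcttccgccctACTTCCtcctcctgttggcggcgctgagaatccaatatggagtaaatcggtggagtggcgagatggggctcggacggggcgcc
Etv5: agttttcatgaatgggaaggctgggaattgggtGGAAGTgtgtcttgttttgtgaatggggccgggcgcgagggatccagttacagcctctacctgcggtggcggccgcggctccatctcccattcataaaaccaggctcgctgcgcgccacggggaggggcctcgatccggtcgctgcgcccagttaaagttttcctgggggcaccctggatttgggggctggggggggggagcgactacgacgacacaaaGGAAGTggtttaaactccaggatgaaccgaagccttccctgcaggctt
Dusp6: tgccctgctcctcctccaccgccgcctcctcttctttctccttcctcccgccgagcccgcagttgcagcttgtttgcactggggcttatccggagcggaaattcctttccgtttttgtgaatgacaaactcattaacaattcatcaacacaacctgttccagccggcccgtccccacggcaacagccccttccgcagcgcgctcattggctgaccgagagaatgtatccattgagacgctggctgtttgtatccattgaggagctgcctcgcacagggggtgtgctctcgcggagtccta
The letters GGAAGT stood 2 times in the Etv5 window and 1 time each in those of Dusp5 and Spred2, and 23.8% of all 32851 windows of this length hold them. TGANTCA (AP-1), TGACGTCA (CRE), the palindromic glucocorticoid response element and its single arm AGAACA stood in none of the 7 windows of these genes, against 7.81, 1.79, 0.00913 and 19.0% of all windows. The 7 windows were rich in G and C, at 57.0 to 74.0% against a median of 52.7% over all windows, and held 17 to 40 CG pairs against a median of 7. A match is a description of the letters only.

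Per kilobase of the longest coding transcript in GENCODE M21, and over all 28 libraries, Phlda1 was the most abundant of the 9 genes at 28.1 CPM per kb, above 77.7% of the genes with a length. Spred2 followed at 11.7 CPM per kb, then Dusp5 at 8.49, Spred1 at 8.01, Dusp4 at 5.40, Dusp6 at 4.07 and Spry2 at 4.04. Etv4 at 1.97 and Etv5 at 1.15 CPM per kb were the scarcest, so their folds rest on low values. Dusp4 is on chromosome 8 (34807297 to 34819894, plus strand, GRCm38), Etv4 on chromosome 11 (101769742 to 101785371, minus strand) and Phlda1 on chromosome 10 (111506286 to 111508645, plus strand).

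**Figure D1:**
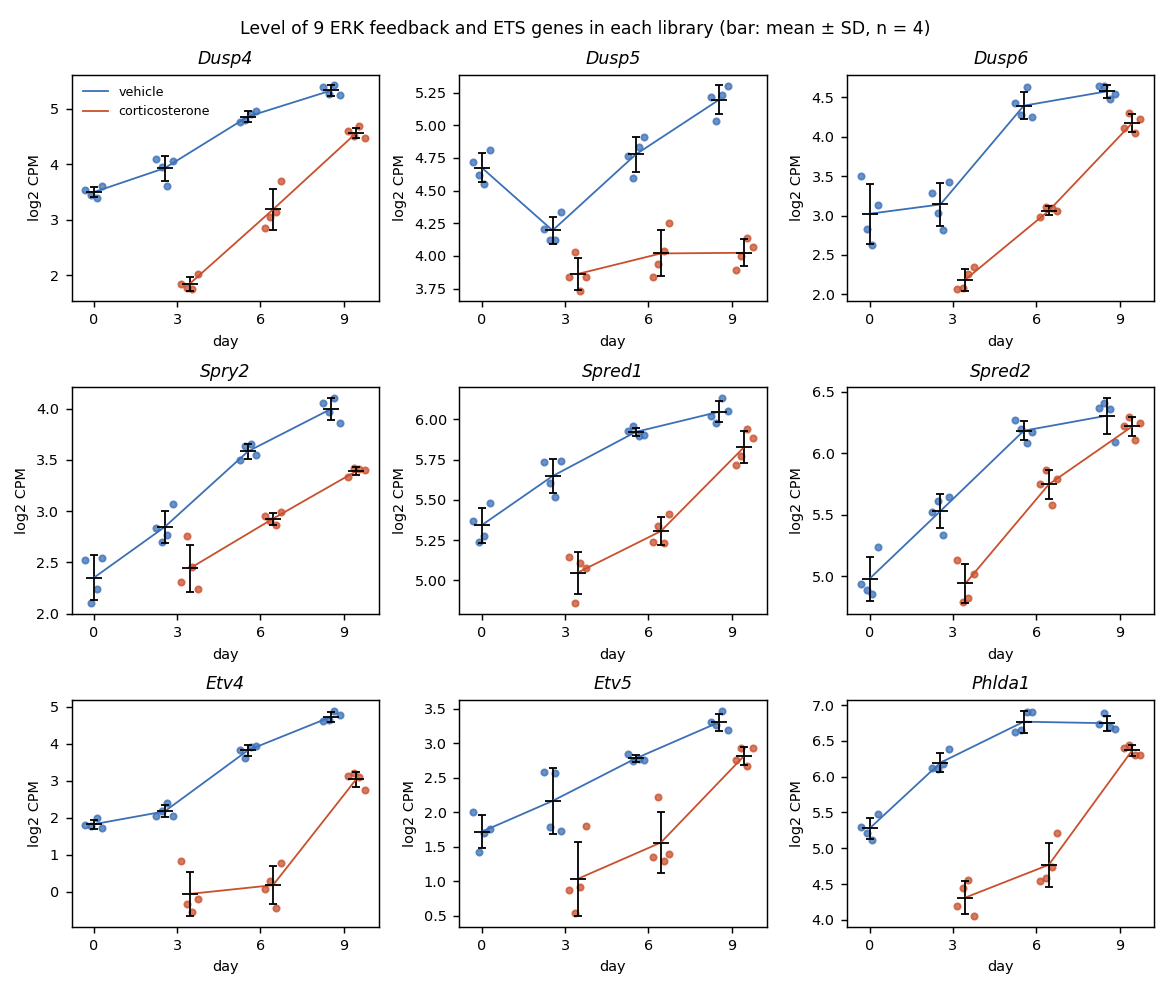
Normalized log2 CPM (y axis, its range set per gene) of 9 genes in each library by day (x axis), with vehicle in blue and corticosterone in red; points are libraries and black bars the mean ± SD of 4. Corticosterone libraries lay below those of vehicle at day 6 in every panel, and Dusp5 was the 1 gene in which treated libraries stayed near 4 log2 CPM through day 9.

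To determine how 3 days of corticosterone changed these transcripts, the corticosterone libraries of day 3 were set against the vehicle libraries. A gene is said to rise or fall where limma's p, adjusted over all genes by the Benjamini-Hochberg method, was under 0.05. All 9 genes fell, where 25.6% of all genes tested fell. The folds ran from 1.26 for Dusp5 to 4.69 for Etv4, and the median log2 change was -0.95 against -0.01 over all genes. In 7 of the 9 genes every treated library lay below every vehicle library, which held for 19.7% of all genes. The exceptions were Spry2 and Etv5. The same number of genes, 9, fell without corticosterone replicate 4.

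Among the phosphatases, Dusp4, a nuclear enzyme that acts on ERK and on the stress kinase JNK, moved most. Its treated libraries stood at 1.74, 1.77, 1.85 and 2.01 log2 CPM and those of vehicle at 3.61, 3.96, 4.06 and 4.10. The highest treated library was thus far below the lowest of vehicle, and the change was -2.09 ± 0.12 (log2 fold change ± SE, limma adjusted p = 3.0e-13). Dusp6, the cytoplasmic phosphatase with a marked preference for ERK, stood at 2.07, 2.08, 2.26 and 2.35 against 2.82, 3.03, 3.28 and 3.43, a change of -0.95 ± 0.14 (adjusted p = 2.1e-06). Dusp5, a nuclear phosphatase specific to ERK, moved least, at 3.73, 3.84, 3.84 and 4.03 against 4.12, 4.12, 4.20 and 4.34. Its groups lay close together without overlapping, and it fell by 0.33 ± 0.09 on the log2 scale (adjusted p = 0.0027).

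The ETS factor gene Etv4 had the lowest value of the 9 genes on the deposited scale. It stood at -0.55, -0.32, -0.19 and 0.82 log2 CPM with corticosterone and at 2.06, 2.06, 2.17 and 2.40 in vehicle. Replicate 1 was the high treated library, still below all of vehicle, and the change was -2.23 ± 0.22 (adjusted p = 2.9e-09). Because treated levels were near 1 CPM, the size depended on the log scale: it was -1.47 with log2(CPM + 1) and -0.66 with log2(CPM + 5). Etv5 stood at 0.54, 0.88, 0.91 and 1.81 against 1.73, 1.78, 2.57 and 2.58. Treated replicate 6 overlapped the lower pair of vehicle libraries, and Etv5 fell by 1.13 ± 0.23 (adjusted p = 0.00016).

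Phlda1, a pleckstrin homology domain gene that follows ERK activity in many epithelial cells, stood at 4.05, 4.19, 4.45 and 4.55 against 6.1, 6.12, 6.18 and 6.39. No treated library came near vehicle, and the change was -1.88 ± 0.12 (adjusted p = 9.4e-13). The Sprouty and Spred genes moved less. Spred1, whose product brings neurofibromin to the membrane to switch RAS off, stood at 4.86 to 5.14 against 5.52 to 5.74 and fell by 0.60 ± 0.07. Its relative Spred2 stood at 4.79 to 5.13 against 5.33 to 5.64 and fell by 0.59 ± 0.09. Spry2, which intercepts signals from receptors to RAS, stood at 2.24, 2.31, 2.45 and 2.76 against 2.70, 2.77, 2.84 and 3.07. Treated replicate 4 exceeded the lowest vehicle library, and the change was -0.41 ± 0.10 (adjusted p = 0.0020). With log2(CPM + 5), which by construction shrinks differences at low levels, the day 3 values were -1.24 for Dusp4, -0.53 for Dusp6, -0.22 for Spry2 and -0.43 for Etv5, all still called, and Phlda1 at -1.65 was then the lowest of the 9.

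**Figure D2:**
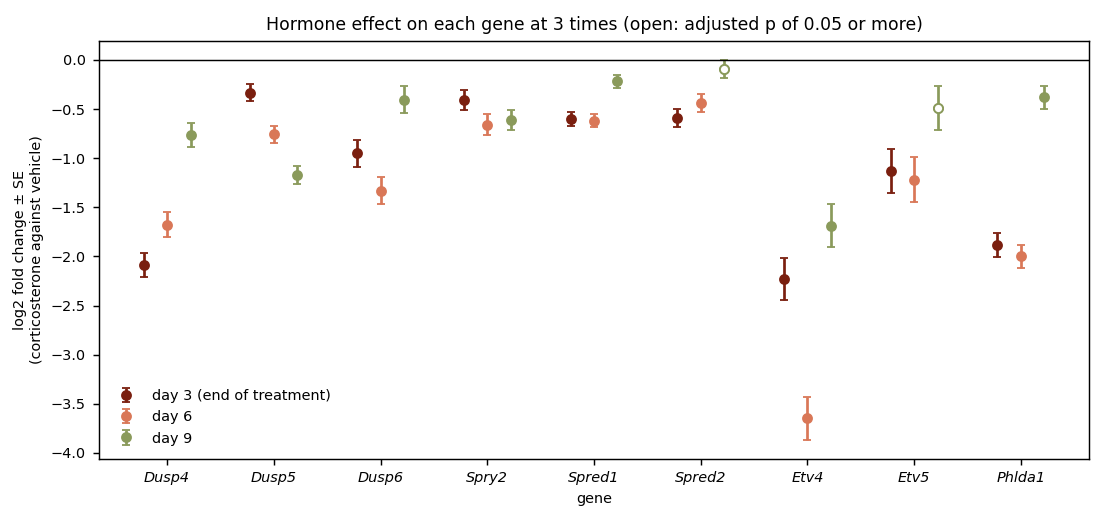
Log2 fold change of corticosterone against vehicle (y axis, ± SE from limma, 4 libraries a group) for 9 genes (x axis) at days 3, 6 and 9; open points did not pass an adjusted p under 0.05. Etv4 at day 6 is the lowest point at -3.65, Dusp5 is lower at each later day, and at day 9 the points of Spred2 (-0.09) and Spred1 (-0.22) are the nearest to 0.

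To determine whether the lower levels outlasted the hormone, the comparison was repeated 3 days after the medium had been replaced. At day 6 all 9 genes again fell, against 24.3% of all genes tested, and in all 9 the treated libraries lay below those of vehicle, against 24.5%. The median log2 change of the 9 genes was -1.22, and the folds ran from 1.35 for Spred2 to 12.5 for Etv4. Each day was compared with its own 4 vehicle libraries, so these comparisons share no library.

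Etv4 at day 6 stood at -0.45, 0.08, 0.30 and 0.77 log2 CPM with corticosterone and at 3.61, 3.84, 3.90 and 3.94 in vehicle. Treated levels were those of day 3 within their spread, while vehicle had gone up, and the change was -3.65 ± 0.22 (adjusted p = 2.4e-13, and -2.81 with log2(CPM + 1) and -1.63 with log2(CPM + 5)). Etv5 stood at 1.29, 1.35, 1.39 and 2.22 against 2.74, 2.76, 2.77 and 2.85. Treated replicate 1 was the high one, and the change was -1.22 ± 0.23, or -0.57 with log2(CPM + 5). Phlda1 stood at 4.54, 4.59, 4.74 and 5.21 against 6.62, 6.65, 6.90 and 6.90, a change of -2.0 ± 0.12 (adjusted p = 2.5e-13). Its treated libraries were thus lower by about as much as at the end of treatment.

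Dusp4 at day 6 stood at 2.84, 3.05, 3.14 and 3.71 log2 CPM against 4.76, 4.80, 4.92 and 4.97, a change of -1.68 ± 0.12. Dusp6 stood at 2.98, 3.06, 3.09 and 3.11 against 4.25, 4.27, 4.42 and 4.63, a change of -1.33 ± 0.14. Dusp5 stood at 3.84, 3.94, 4.04 and 4.25 against 4.59, 4.76, 4.84 and 4.91, a change of -0.76 ± 0.09. In these phosphatase genes the lowest vehicle library was above the highest treated one. Spry2 fell by 0.66 ± 0.10, with 2.86 to 2.99 against 3.5 to 3.65 (-0.43 with log2(CPM + 5)). Spred1 and Spred2 fell by 0.62 ± 0.07 and 0.44 ± 0.09.

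At day 9, after 6 days without hormone, 7 of the 9 genes were still lower (14.4% of all genes tested fell) and in 8 the groups did not overlap (16.3% of all genes). The median log2 change was -0.49. Among the phosphatase genes Dusp5 now had the lowest value. It stood at 3.89, 4.00, 4.07 and 4.13 log2 CPM in treated libraries and at 5.03, 5.22, 5.23 and 5.30 in vehicle, a change of -1.17 ± 0.09 (adjusted p = 1.5e-10). The gap between the groups was wider than the spread within either. Etv4 stood at 2.75, 3.1, 3.12 and 3.20 against 4.61, 4.63, 4.78 and 4.89 and was lower by 3.22-fold (log2 change -1.69 ± 0.22, adjusted p = 1.5e-06).

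Dusp4 at day 9 stood at 4.47, 4.52, 4.59 and 4.68 against 5.24, 5.26, 5.39 and 5.43, a change of -0.77 ± 0.12, and Spry2 at 3.34, 3.4, 3.41 and 3.42 against 3.87, 3.97, 4.06 and 4.11, a change of -0.61 ± 0.10. Both kept clear gaps between the groups. Smaller falls were measured for Dusp6 (-0.40 ± 0.14, adjusted p = 0.028), Phlda1 (-0.38 ± 0.12, adjusted p = 0.018) and Spred1 (-0.22 ± 0.07, adjusted p = 0.016). These 3 calls depended on single libraries. That of Dusp6 was lost without vehicle replicate 3 or 4 or corticosterone replicate 3 or 5 (adjusted p = 0.068 to 0.079), that of Spred1 without vehicle replicate 5 or corticosterone replicate 3 (0.059 and 0.067), and that of Phlda1 without vehicle replicate 4 (0.062). Etv5 was at -0.49 ± 0.23 (adjusted p = 0.112), though its treated libraries at 2.67 to 2.93 did not overlap vehicle at 3.18 to 3.47, and it passed with the day 9 groups fitted alone (adjusted p = 0.0031) and with log2(CPM + 5) (adjusted p = 0.0145). Spred2 was at -0.09 ± 0.09 (adjusted p = 0.511).

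The difference between hormone effects was tested as an interaction. From day 3 to day 6 the effect became lower still for Etv4, by 1.42 ± 0.31 (adjusted p = 0.0031), and for Dusp5, by 0.42 ± 0.12 (adjusted p = 0.031). These were 2 of 9 genes, and 4.90% of all genes tested moved that way. Dusp6, not called at -0.38 ± 0.19, was called with log2(CPM + 5) (-0.43, adjusted p = 0.030). The Dusp5 call ended without vehicle day 3 replicate 3, 4 or 5, vehicle day 6 replicate 5 or 6, corticosterone day 3 replicate 4 or corticosterone day 6 replicate 1 or 3 (adjusted p = 0.0505 to 0.0743), and with the 4 groups fitted alone (0.0797). From day 3 to day 9 the effect became less negative for 5 of the 9 genes, where 19.8% of all genes tested moved up, and more negative for 1, where 18.5% moved down. The 5 were Phlda1 by 1.50 ± 0.17 (adjusted p = 8.6e-08), Dusp4 by 1.32 ± 0.18 (1.3e-06, and 0.58 with log2(CPM + 5)), Dusp6 by 0.55 ± 0.19 (0.027), Spred2 by 0.50 ± 0.13 (0.0030) and Spred1 by 0.38 ± 0.10 (0.0024). The gene that went the other way was Dusp5, at -0.84 ± 0.12 (adjusted p = 6.1e-06). The Dusp6 difference was not called with log2(CPM + 5) (adjusted p = 0.201) or without vehicle day 3 replicate 3 or 6, vehicle day 9 replicate 5, corticosterone day 3 replicate 1 or corticosterone day 9 replicate 4 (0.051 to 0.071). Spry2 was at -0.20 ± 0.15, called with log2(CPM + 5) (-0.22, adjusted p = 0.042), and Etv5 at 0.64 ± 0.32, called at 0.90 without corticosterone day 3 replicate 6 (adjusted p = 0.013). Etv4 was at 0.54 ± 0.31 (adjusted p = 0.168), called at 0.84 without corticosterone day 3 replicate 1 (adjusted p = 0.0089) and turned to -0.59 with log2(CPM + 5) (adjusted p = 2.5e-05).

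Vehicle libraries of each day were also compared with the day 0 libraries. Those had received no ethanol, and later groups had 0.1% ethanol and changes of medium, so that time in culture, ethanol and fresh medium cannot be told apart here. Most of these genes were higher after day 0. At day 3, 5 of the 9 genes rose, against 36.5% of all genes tested, and 1 fell, against 32.7%. At day 6, 8 rose, against 36.4%, and at day 9 all 9 rose, against 35.9%, with a median log2 change of 1.55 against 0.02 over all genes. These 3 comparisons share the day 0 libraries, and the vehicle libraries also serve as controls of the hormone comparisons.

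Etv4 went up most in vehicle. It stood at 1.71, 1.78, 1.81 and 1.98 log2 CPM at day 0 and rose by 2.0 ± 0.22 to day 6 and by 2.90 ± 0.22 to day 9 (7.49-fold), or by 1.16 and 1.88 with log2(CPM + 5). Dusp4 stood at 3.4, 3.45, 3.53 and 3.61 at day 0 and rose by 0.43 ± 0.12, 1.36 ± 0.12 and 1.84 ± 0.12 to days 3, 6 and 9. Spry2 rose by 0.50 ± 0.10, 1.23 ± 0.10 and 1.65 ± 0.10, so that the vehicle libraries of each day lay above those of the sampled day before it. The day 3 rises of Dusp4 and Spry2 were not called under quantile normalization (0.28 and 0.17). To day 6 the rises of Etv4, Dusp4 and Spry2 were then 1.64, 1.22 and 0.90, smaller but still called. With log2(CPM + 5) the rises of Spry2 were 0.27, 0.75 and 1.05.

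Dusp6 stood at 2.63, 2.84, 3.13 and 3.5 log2 CPM at day 0 and at 2.82 to 3.43 at day 3, with overlap, and its rise came by day 6 (1.37 ± 0.14). Phlda1 rose early, by 0.92 ± 0.12 at day 3, and stood at 6.62 to 6.90 at day 6 and 6.66 to 6.89 at day 9, the same range. Dusp5 fell first, from 4.55 to 4.81 at day 0 to 4.12 to 4.34 at day 3 (-0.48 ± 0.09, adjusted p = 2.8e-05), returned to 4.59 to 4.91 at day 6 and rose by 0.52 ± 0.09 by day 9. Spred1 and Spred2 rose by 0.70 ± 0.07 and 1.33 ± 0.09 by day 9, and Etv5 by 1.59 ± 0.23 (0.84 with log2(CPM + 5)).

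Treated cultures were also compared with day 0. At day 3, 7 of the 9 genes were below their day 0 level, against 36.9% of all genes tested, led by Etv4 at -1.88 ± 0.22 and Dusp4 at -1.65 ± 0.12. Phlda1 was at -0.96 ± 0.12, Dusp6 at -0.83 ± 0.14, Dusp5 at -0.81 ± 0.09, Etv5 at -0.68 ± 0.23 and Spred1 at -0.30 ± 0.07. Spred2 (-0.04 ± 0.09) and Spry2 (0.09 ± 0.10) were not called, and Spry2 was lower under quantile normalization (-0.31, adjusted p = 0.0089). With log2(CPM + 5) the values were -0.51 for Etv4, -0.92 for Dusp4, -0.46 for Dusp6 and -0.22 for Etv5, all still called. Etv5 was at -1.11 under quantile normalization. For Spred2 the treated libraries (4.79 to 5.13 log2 CPM) overlapped those of day 0 (4.85 to 5.24), while the vehicle libraries (5.33 to 5.64) lay above both.

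At day 6, 4 of the 9 genes were below day 0 in treated cultures (36.6% of all genes fell) and 2 were above (38.6% rose). Etv4 was lowest at -1.65 ± 0.22, followed by Dusp5 at -0.66 ± 0.09 and Phlda1 at -0.51 ± 0.12. Dusp4 was at -0.31 ± 0.12 (adjusted p = 0.026), a call lost with both groups fitted alone or without vehicle day 0 replicate 3 or 6 or corticosterone day 6 replicate 1, 3 or 5 (-0.30 to -0.20). Spred2 was higher by 0.77 ± 0.09 and Spry2 by 0.58 ± 0.10, the latter at 0.21 and not called under quantile normalization, while Dusp6, Etv5 and Spred1 were at 0.04, -0.16 and -0.04 (Etv5 at -0.60, adjusted p = 0.017, under quantile normalization). With log2(CPM + 5), Etv4 was at -0.47, Dusp4 at -0.20 and Spry2 at 0.32, all called.

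At day 9, 8 of the 9 genes were above day 0 in treated cultures as well (33.4% of all genes rose), by 0.49 ± 0.07 for Spred1 and by 1.04 to 1.24 for the other 7, among which Spry2, Etv4 and Etv5 were at 0.61, 0.63 and 0.54 with log2(CPM + 5). Dusp5 was the 1 gene below it, at -0.65 ± 0.09 (adjusted p = 4.1e-07), where 32.0% of all genes fell. Its treated libraries lay at 3.73 to 4.03, 3.84 to 4.25 and 3.89 to 4.13 log2 CPM at days 3, 6 and 9, overlapping one another on all 3 days.

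**Figure D3:**
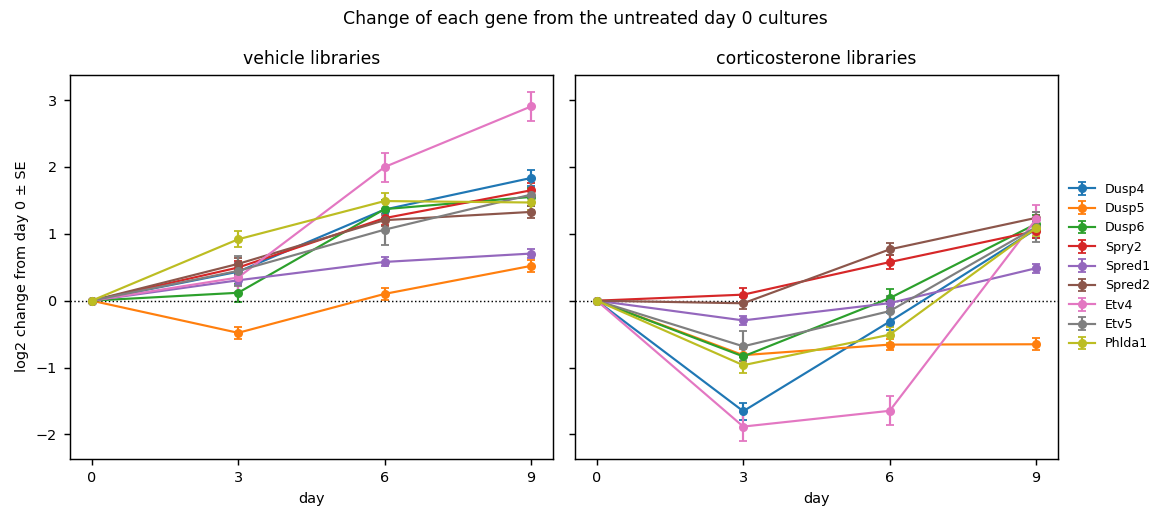
Log2 change from the day 0 libraries (y axis, ± SE from limma) by day (x axis) for 9 genes, in vehicle libraries (left) and corticosterone libraries (right), with day 0 set to 0. By day 9 all vehicle lines and all treated lines but that of Dusp5 stand above 0, and Dusp5 in treated libraries stays near -0.65 at days 6 and 9.

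Ordered by level, the corticosterone day 3 group had the lowest mean of the 7 for 8 of the 9 genes. It was separate from the next group for Dusp4, Dusp6 and Spred1. For Dusp5, Spred2, Etv4, Etv5 and Phlda1 it overlapped the next group, so there it was not the lowest beyond the spread. The exception was Spry2, whose day 0 group was 0.09 lower with overlapping ranges. The share of all genes with this order was not counted. Vehicle day 9 had the highest mean for 8 genes, overlapping the next group for Dusp6 and Spred2. For Phlda1 it stood 0.02 under vehicle day 6 with overlapping ranges. Etv4 had the clearest order: corticosterone days 3 and 6, which overlapped, then vehicle day 0, vehicle day 3, corticosterone day 9, vehicle day 6 and vehicle day 9, each separate from its neighbour. For Dusp4 the order was the same, with overlap between corticosterone day 6 and vehicle day 0 and between vehicle days 0 and 3. For Dusp6, corticosterone day 6 (2.98 to 3.11) could not be set apart from vehicle day 0 or day 3, nor corticosterone day 9 from vehicle day 6. For Spred2, corticosterone day 9 (6.11 to 6.29) overlapped vehicle at day 6 and at day 9.

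The other genes of the pathway were taken from 7 lists, of which 99 distinct genes were measured and 4 (Dusp1, Elk3, Ereg and Hbegf) stand in 2 lists. Beside the list medians given here, the median of all genes lay within 0.01 of 0 in each of the 3 hormone comparisons. Of all genes, 23.3% rose and 25.6% fell at day 3, 22.9% and 24.3% at day 6, and 14.1% and 14.4% at day 9. Among other transcripts that ERK signalling raises, 13 of 19 (68.4%) fell at day 3, with a median of -0.65, 12 fell at day 6 (-0.40) and 10 fell at day 9 (-0.35). In limma 0 of them rose at day 3 or day 6, also at an unadjusted p under 0.05, and 1 rose at day 9. The epithelial membrane protein gene Emp1 fell by 0.85 ± 0.05 at day 3, the AP-1 gene Fosl1 by 1.61 ± 0.12 and the EGF receptor ligand gene Hbegf by 0.65 ± 0.06. At day 6 Fosl1 was at -2.15 ± 0.12, and at day 9 the small Maf factor gene Maff was at -1.28 ± 0.09. From day 0 to vehicle day 9 this list went both ways, with 8 of 19 higher (42.1%, against 35.9% of all genes) and 7 lower (36.8%, against 34.6%) and a median of -0.06. Among its members Fos rose by 3.52 ± 0.15, Trib2 by 2.20 ± 0.10 and Egr1 by 2.19 ± 0.10.

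Genes of the kinase cascade itself had medians near 0 with the hormone. Of 27 measured genes from RAS adaptors to ERK substrates, 6 rose (22.2%) and 5 fell (18.5%) at day 3 (median -0.02), 7 rose and 4 fell at day 6 (median 0.04), and 2 rose and 5 fell at day 9 (median -0.01). The day 3 shares were not above those of all genes. Mknk2, a kinase gene downstream of ERK, rose by 0.79 ± 0.05 at day 3 and the RAF gene Araf by 0.25 ± 0.04. At day 9 the MEK gene Map2k1 fell by 0.55 ± 0.06 and the adaptor gene Shc1 by 0.28 ± 0.05.

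Of 13 receptor tyrosine kinase genes, 4 rose and 4 fell at day 3 (30.8% each, near the shares of all genes), 5 rose and 4 fell at day 6, and 1 rose and 6 fell at day 9. Met, the receptor for hepatocyte growth factor, was at -1.33 ± 0.14 at day 3 and -1.67 ± 0.14 at day 6, and Pdgfrb at -0.60 ± 0.06 and -1.26 ± 0.06, while Fgfr1 fell by 0.53 ± 0.07 at day 9. Of 12 ligand genes, 1 rose and 7 (58.3%) fell at day 3 (median -0.35), among them Pdgfb at -0.69 ± 0.07 and Tgfa at -0.69 ± 0.07. At day 6, 3 rose and 4 fell, and at day 9, 4 rose and 4 fell.

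Of 17 other Sprouty, Spred, phosphatase and inhibitor genes, 3 rose (17.6%) and 9 fell (52.9%) at day 3 (median -0.17), 6 rose and 7 fell at day 6 (median -0.06), and 2 rose and 3 fell at day 9 (median -0.02). Errfi1, an inhibitor of the EGF receptor, rose by 0.96 ± 0.06 at day 3, and the phosphatase gene Dusp7 by 0.86 ± 0.08. Pea15a, whose product binds ERK and holds it in the cytoplasm, fell by 0.61 ± 0.05 at day 3 and by 0.55 ± 0.05 at day 6. Dusp8, whose product acts on stress kinases, rose by 1.37 ± 0.11 at day 6, and Errfi1 by 0.65 ± 0.06. Of 14 other ETS factor genes, 2 rose (14.3%) and 6 fell (42.9%) at day 3, with Elf3, an epithelial member, up by 0.92 ± 0.11 and Elk3 down by 0.55 ± 0.06. Phlda3, a relative of Phlda1, fell on each day, by 0.48 ± 0.11, 0.42 ± 0.11 and 0.44 ± 0.11.

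**Figure D4:**
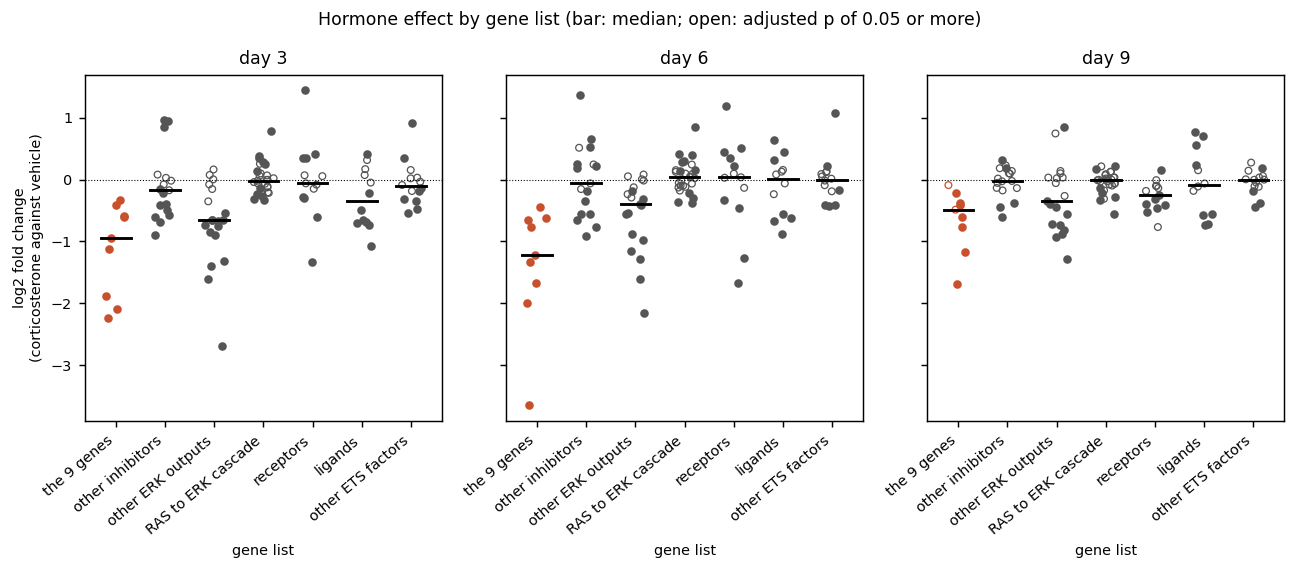
Log2 fold change of corticosterone against vehicle (y axis) for the 9 genes and each measured gene of 6 other lists (x axis; Phlda3 is not drawn) at days 3, 6 and 9; filled points passed an adjusted p under 0.05, open points did not, and bars are medians. The 9 genes (red) lie below 0 on each day with medians of -0.95, -1.22 and -0.49, and the RAS to ERK cascade has medians of -0.02, 0.04 and -0.01.

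Genes with the most similar course were sought among 11158 others with a mean of at least 1 log2 CPM. Likeness was the root mean square log2 distance over the 28 libraries after centring each gene, given here as a description. Nearest to the median course of the 9 genes were Stard4 (0.18), a sterol carrier gene, Arl4c (0.21), a small GTPase gene, Trabd2b (0.22), the phosphatase gene Ptpre (0.23) and the adhesion gene Cadm1 (0.24). The median course itself departed from its own mean by 0.70. Of single genes, Dusp6 and Dusp4 lay nearest to Arl4c (0.27 and 0.38), Etv4 to Olfml3 (0.42), Phlda1 and Etv5 to Neurl3 (0.24 and 0.32), Spred2 to the ETS factor gene Ets2 (0.17), Spry2 to Gch1 (0.20), Spred1 to Slfn9 (0.11) and Dusp5 to Loxl2 (0.21). The second nearest were Cadm1 for Dusp6 and Etv5 (0.31 and 0.34), Lrp8 for Dusp4 and Phlda1 (0.39 and 0.29), Vcam1 for Etv4 (0.46), Apcdd1 for Spred2 and Spry2 (0.19 and 0.23), Ppp2r3a for Spred1 (0.12) and Seh1l for Dusp5 (0.21).

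**Figure D5:**
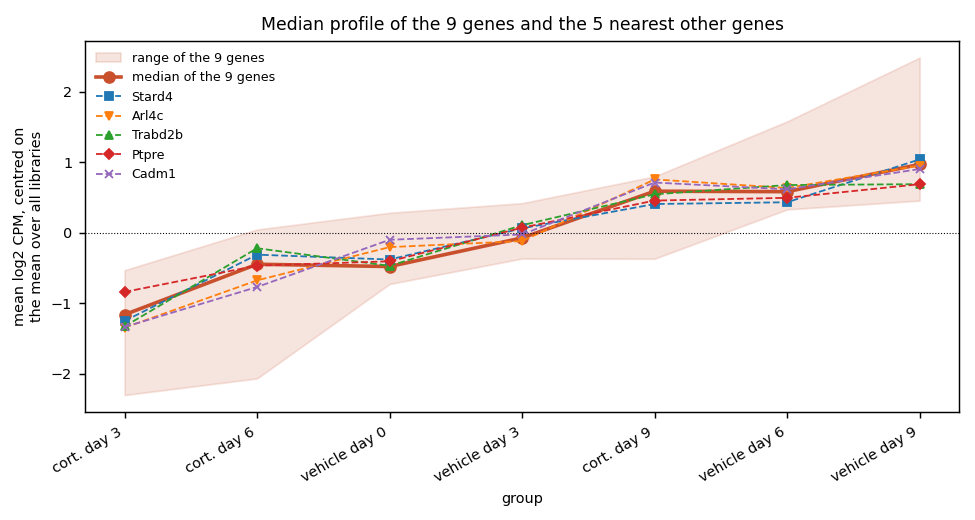
Group means of log2 CPM, centred on each gene's mean (y axis), over the 7 groups (x axis): the median (red line) and range (shading) of the 9 genes, and the 5 nearest other genes (dashed). The median of the 9 genes goes from -1.16 in corticosterone day 3 to 0.97 in vehicle day 9, and corticosterone day 9 (0.59) stands beside vehicle day 6 (0.58).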

How the data were processed

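The 28 RNA libraries of DC2 cells, in 7 groups, were used as the authors' deposited table of normalized log2 CPM. Per the labels' protocols, 500 ng of TRIzol-extracted RNA per sample entered a stranded mRNA kit. Per the submitters' processing notes, the tools were kallisto, edgeR 3.40.1 and limma 3.54.0 and the build mm10, with no role stated. No source used here gives the annotation, prior count or scaling method. Counts and depth were not used here, so no count model was fitted. An entry without a symbol was left out, and a filter of log2 CPM above 0 in at least 4 libraries removed 0 of 13128 genes.

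For all genes and 28 libraries, 7 group means were estimated by limma 3.58.1 (R 4.3.3), with an intensity trend, two-sided tests and 21 residual degrees of freedom. Benjamini-Hochberg adjusted p under 0.05 over all genes called a gene in each of 11 contrasts, and "rose" and "fell" are used of such genes. The code was tested on simulated data. Transcript lengths came from GENCODE M21 (94.8% of genes matched).

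All 9 measured genes are named whatever their values, from other lists at most 3 genes per comparison with the smallest p, and by likeness the 2 nearest genes of each and the 5 nearest of their median, passing over predicted gene models. The genes, lists and tests were chosen with earlier results of these data known. Alternatives were a stricter filter (above 2), no filter, log2(CPM + 1), log2(CPM + 5), median centring, quantile normalization, only the groups compared, no trend, robust moderation, library weights, the replicate number as a block, adjusted p under 0.01 and leaving out each library. The main fit did not pair libraries by replicate number in any comparison, and the block was an alternative only. Whether same-numbered deviations from the group means all correlated over 0.1 was also looked at. That held for corticosterone against vehicle at day 6 (0.16, 0.13 and 0.11 for numbers 3, 5 and 6). Only 1 of these 3 treated libraries correlated best with its own number.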

Additional observations from a re-analysis of the deposited data

Results flagged for a closer look

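Among the 63 combinations of gene and group, 2 held a library far from the other 3, and chance marks about 1 group in 20. Etv5 in corticosterone day 6 stood at 2.22 log2 CPM in replicate 1 against 1.29 to 1.39 in the others, and the hormone effect on Etv5 at day 6 was called whichever 1 library was left out. Spred2 in vehicle day 9 stood at 6.09 in replicate 6 against 6.36 to 6.41 in the others, and its day 9 hormone effect was not called whichever 1 was left out.

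Differences between hormone effects passed the interaction test for these genes (log2, later effect minus that of day 3). At day 6 they were -0.42 for Dusp5 and -1.42 for Etv4. At day 9 they were -0.84 for Dusp5, 1.32 for Dusp4, 0.55 for Dusp6, 0.38 for Spred1, 0.50 for Spred2 and 1.50 for Phlda1.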

How the results depend on the processing

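Of 2124 alternative values for single genes, 2074 kept their side of the threshold, and changes of sign without a call were counted among these. Dusp6 in vehicle day 3 against day 0, for example, went from 0.12 to -0.10 with quantile normalization. Another 37 lost and 11 gained a call in the same direction. The other 2 turned and were then called. They were Spry2 in corticosterone day 3 against day 0 (-0.31 with quantile normalization) and Etv4 in the day 9 against day 3 difference (-0.59 with log2(CPM + 5)). The cause was not tested. The 9 falls at day 3, the 9 at day 6 and the 9 rises of vehicle day 9 held in number under each alternative. With adjusted p under 0.01, 4 rather than 7 genes fell at day 9 and 1 rather than 2 had a lower effect at day 6 than at day 3, a count of 1 also with the groups fitted alone and of 1 to 2 without single libraries. Under quantile normalization 3 rather than 5 genes rose in vehicle at day 3 and 1 rather than 2 stood above day 0 in treated day 6 cultures. With log2(CPM + 5), 3 rather than 1 had a lower effect at day 9 than at day 3. With the replicate block the counts were those without it in all 11 contrasts (9, 9 and 7 falls with corticosterone at days 3, 6 and 9), and no call of a single gene changed. Over all comparisons the same-numbered libraries correlated at -0.03 to 0.17 in 32 pairs, and 14 correlated best with their own number. Besides corticosterone against vehicle at day 6, no comparison had all its same-numbered pairs over 0.1. That does not show that the numbers are without meaning there. In corticosterone day 3 against day 0, numbers 4, 5 and 6 each correlated best with their own number (0.11, 0.08 and 0.10). Read depth was not given. With log2(CPM + 5) the day 3 hormone effects of Etv4, Dusp4, Etv5, Dusp6 and Spry2 were smaller by over 1.5 times and still called.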
